A study of Mus musculus with 12 samples.

Results

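The genes of mitochondrial oxidative phosphorylation were examined in injured mouse spinal cord by their RNA levels. Members were all genes of the deposited table whose symbol begins with NDUFA, NDUFB, NDUFC, NDUFS, NDUFV, COX4 to COX8, UQCR or ATP5, or is SDHA, SDHB, SDHC or SDHD. This gave 90 of 13957 gene symbols, of which 89 were listed above the lesion, 85 below it and 84 at both sites. By respiratory complex they comprised 37 subunits of complex I (7 core and 30 accessory), 8 complex I assembly factors, 4 subunits of complex II, 8 of complex III, 14 of complex IV, 17 of complex V (5 of the F1 head and 12 of the stalk and membrane part) and 2 related proteins. Subunits encoded in mitochondrial DNA were not listed, so the members are nuclear genes.

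All mice were males that were assigned to groups at 4 months of age, carried human ApoE4 and received a contusion SCI at T9. The comparison was between synj1+/+ and synj1+/- mice, the latter carrying 1 intact copy of synaptojanin 1, and it asked which RNAs differ with genotype in segments just above or below the lesion at 14 days. The 12 libraries formed 4 groups of 3 (each genotype at each site), and whether the segments above and below came from the same mice was not given. The table holds 1 value per gene and group, combined by the authors from the 3 libraries, so no spread between libraries or replicate check could be had from it. The authors' own test results in the table were not used, and all comparisons here are descriptions of 2 group values.

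Oxidative phosphorylation is the main source of ATP in neurons. Complexes I and II pass electrons from NADH and succinate to ubiquinone, complex III passes them to cytochrome c and complex IV to oxygen, and complex V uses the resulting proton gradient to make ATP. All complexes but complex II combine subunits encoded in the nucleus with a few encoded in mitochondrial DNA, and dedicated assembly factors build them. Damage to mitochondria and loss of respiration are well known in the contused spinal cord.

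Values are FPKM (fragments scaled to transcript length and to the fragments mapped). The log2 ratio divides FPKM plus 1 in mice labelled synj1+/- by that in mice labelled synj1+/+, which understates the change of low genes, and an absolute log2 ratio of 0.25 was used as the size threshold. The sites were normalized separately, so levels above and below are only set side by side. SYNJ1 itself went against the genotype labels. Above the lesion it measured 1904 FPKM under the synj1+/+ label and 2403 under the synj1+/- label (log2 ratio 0.34), and below the lesion 1846 and 2592 (log2 ratio 0.49). Every direction given here rests on those labels, and synj1+/+ and synj1+/- name the groups so labelled. With the labels exchanged, every log2 ratio would change sign. The deposited values do not show which exons of the altered allele are still transcribed.

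Oxidative phosphorylation genes were slightly higher under the synj1+/- label at both sites. Above the lesion 67 of 89 had a log2 ratio over 0, against 49.0% of all 13647 genes listed there, and their median was 0.08 where that of all genes was 0.00. Below the lesion 62 of 85 were over 0, against 52.8% of all 12338 genes, with a median of 0.09 beside 0.01. The summed FPKM of the members went from 11189 to 11820 above (5.65% higher) and from 11917 to 12754 below (7.02% higher), while the sum over all genes changed by -0.569% above and 2.07% below. The median differences correspond to a fold of 1.06 at each site.

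Large differences were few. Above the lesion 9 members were at least 0.25 higher and 2 at least 0.25 lower, and among all genes there 7.44% passed the threshold upward and 11.6% downward. Below, 5 passed upward and 2 downward, beside a background of 13.7% and 15.8%. The members at or over the threshold were thus 10.1% of those listed above and 5.88% of those below in the upward direction, and 2.25% and 2.35% in the downward direction. No member reached 0.5 in either direction above the lesion, where 1.3% of all genes were higher and 2.87% lower by that much. Below, 3 did so, all of them higher (2.04% of all genes were, and 5.74% were lower by that much). They were NDUFC1, at 0.687 and 2.16 FPKM, the assembly factor NDUFAF6 and the related protein NDUFA4L2.

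**Figure D1:**
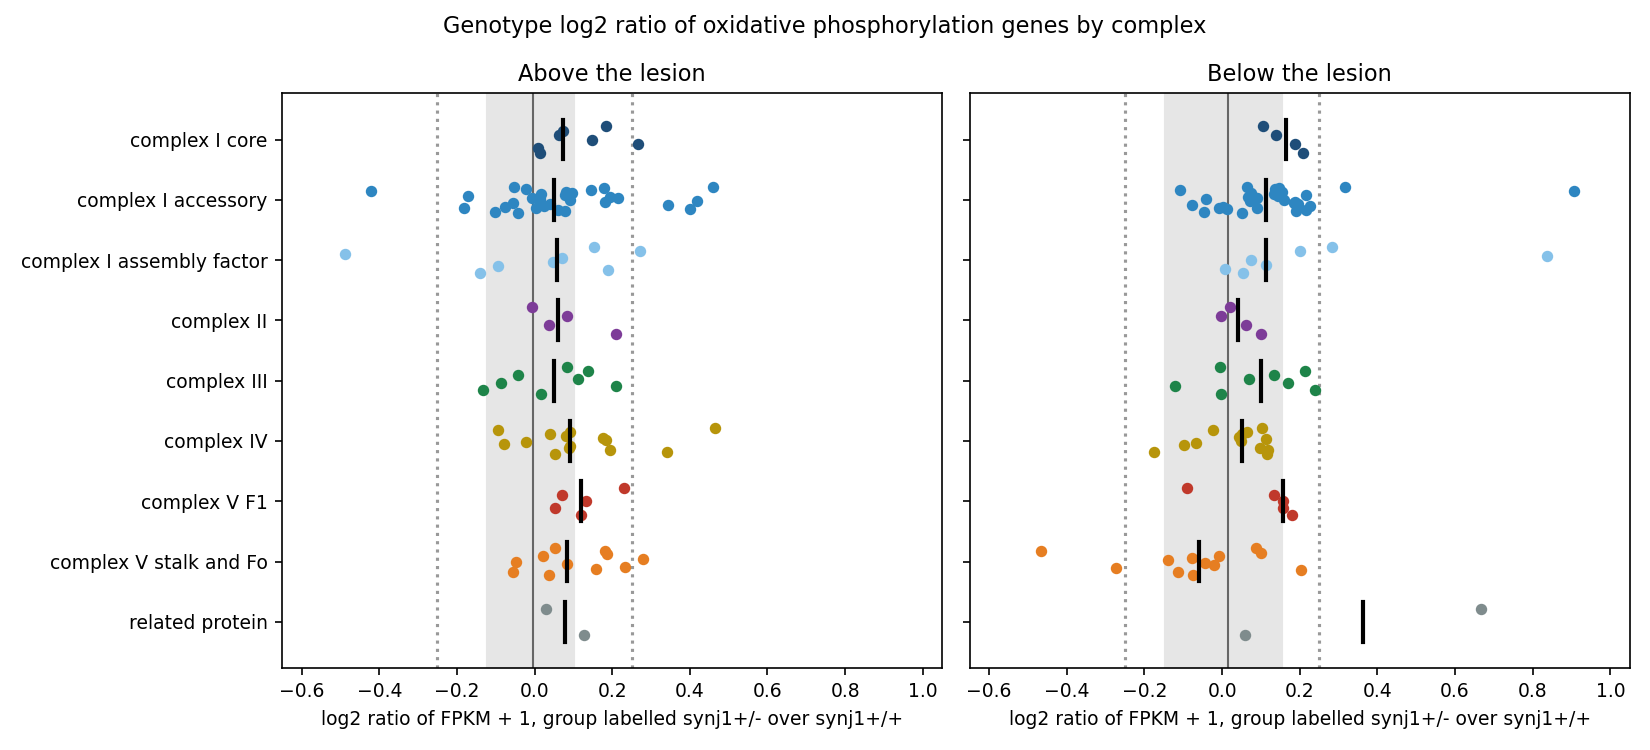
Log2 ratio of each oxidative phosphorylation gene (x axis, FPKM plus 1, synj1+/- over synj1+/+ as labelled) by complex (y axis), above and below the lesion. Each dot is 1 gene, black bars are class medians, the grey line and band are the median and middle 50% of all genes, and dotted lines mark 0.25 in each direction; most dots lie right of the grey line, except for the complex V stalk and membrane genes below the lesion.

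The same genes were not the highest at both sites. Of the 84 members listed at both, 48 (57.1%) were over 0 at both sites, against 31.3% of all 12025 genes listed at both, 7 were under 0 at both, 15 were over 0 only above and 14 only below. Across these 84 genes the log2 ratios above and below had a Spearman correlation of -0.06, and across all 12025 genes it was 0.30, where genes are not independent replicates and segments may share mice. NDUFS6, an accessory subunit of complex I, was the 1 member at least 0.25 higher at both sites. That is 1.19% of the 84 members, and 2.05% of all genes listed at both were. It measured 18.6 FPKM in synj1+/+ and 25.9 in synj1+/- above, a log2 ratio of 0.46, and 21.9 and 27.5 below, a log2 ratio of 0.32. Both synj1+/- values were above both synj1+/+ values, though levels across the sites are only set side by side. NDUFS6 was picked for being higher in synj1+/- at both sites, so this order follows in part from that choice. NDUFS6 shares 30 exon bases with Mrpl36 on the opposite strand.

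**Figure D2:**
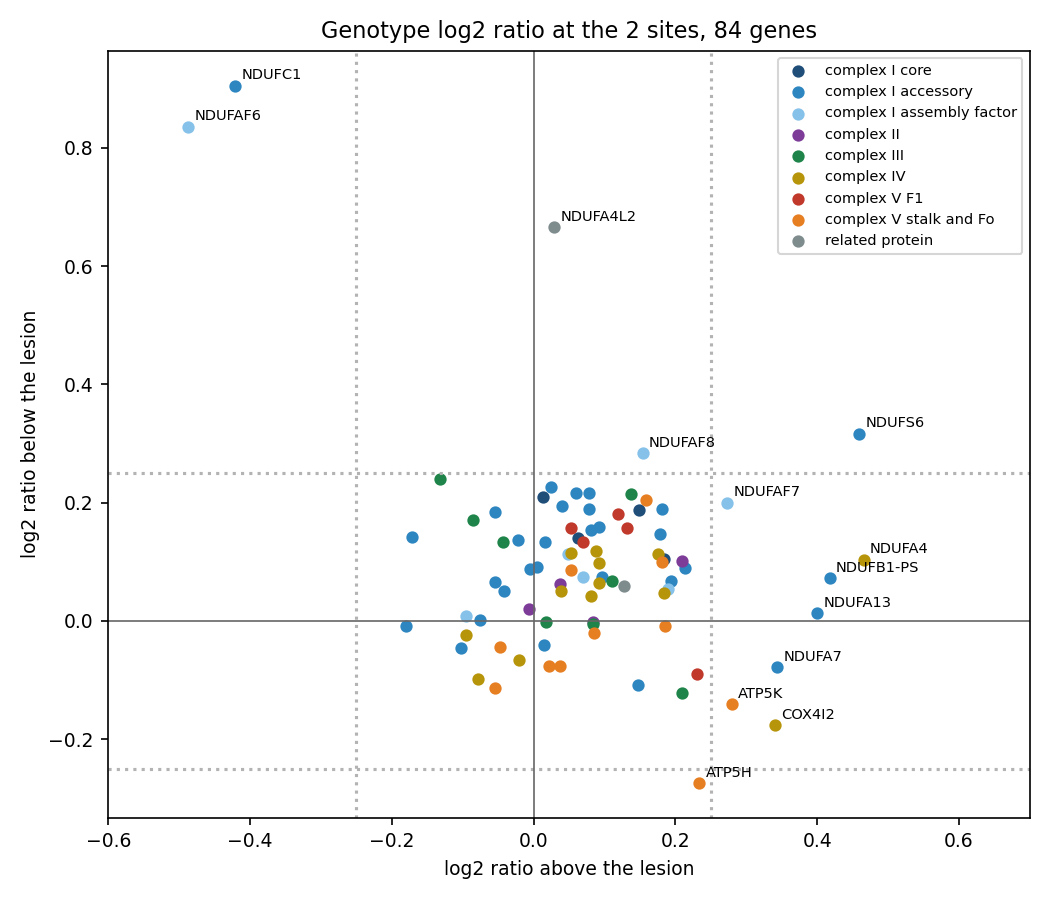
Genotype log2 ratio of the 84 genes listed at both sites, above (x axis) against below the lesion (y axis), coloured by complex. Dotted lines mark 0.25 in each direction and genes past it are named; NDUFS6 is the 1 gene past it upward at both sites, and NDUFAF6 and NDUFC1 lie past it in opposite directions.

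Promoters were examined because the genes of this pathway share known regulators. Nuclear respiratory factor NRF1, the ETS factor GABPA, YY1 and the estrogen-related receptor ESRRA are textbook activators of respiratory chain genes. RefSeq windows of 300 bases (250 before and 50 after each start) were given for 75 of the 90 members, in 80 windows. The NRF1 letters, GCGCA and GCGC parted by any 1 base, were found on either strand in 20 of the 80 windows (25%), against 9.07% of the windows of genes listed in the table and 4.60% of all 32851 windows. The ETS letters CCGGAAG were in 19 windows (23.8%), against 15.7% and 8.86%. The YY1 letters, AAGATG followed at once by GCGG, were in 6 (7.5%), against 1.76% and 0.852%, and the ESRRA letters TCAAGGTCA in 2 (2.5%), against 0.319% and 0.423%. Any of the 4 was present in 38 windows (47.5%), against 24.3% and 13.5%. The 4 motifs were searched separately and may lie on top of each other. A match describes letters in the window and was not tested as a binding site.

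Windows are shown for NDUFS6, which was higher at both sites, for NDUFA4, which had the highest log2 ratio above the lesion, and for the 3 complex V genes (ATP5O, ATP5H and ATP5K) with the lowest log2 ratios below the lesion. The second of the ATP5J windows is added because that gene and Gabpa, the gene of the ETS factor, overlap head to head by 397 exon bases. Sequences are RefSeq's, build GRCm38.p6, read 5′ to 3′ on the gene's own strand, which is the minus strand for all. Capitals mark matches to the NRF1, ETS or YY1 letters on either strand. The windows are chr13:73328433-73328732 for NDUFS6, chr6:11907401-11907700 for NDUFA4, chr16:91931581-91931880 for ATP5O, chr11:115419870-115420169 for ATP5H, chr5:108434350-108434649 for ATP5K and chr16:84834927-84835226 for ATP5J.
NDUFS6: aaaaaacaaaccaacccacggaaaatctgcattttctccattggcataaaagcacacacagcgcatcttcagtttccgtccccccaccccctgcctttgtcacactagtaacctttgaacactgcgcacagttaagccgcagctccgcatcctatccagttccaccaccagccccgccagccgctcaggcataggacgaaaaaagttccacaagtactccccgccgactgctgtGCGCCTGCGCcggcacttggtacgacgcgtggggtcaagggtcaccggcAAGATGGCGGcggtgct
NDUFA4: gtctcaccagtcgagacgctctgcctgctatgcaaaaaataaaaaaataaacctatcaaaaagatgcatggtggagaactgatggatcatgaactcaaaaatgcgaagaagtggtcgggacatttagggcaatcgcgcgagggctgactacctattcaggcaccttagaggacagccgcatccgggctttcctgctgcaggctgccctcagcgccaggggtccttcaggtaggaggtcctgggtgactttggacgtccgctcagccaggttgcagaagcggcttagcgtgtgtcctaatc
ATP5O: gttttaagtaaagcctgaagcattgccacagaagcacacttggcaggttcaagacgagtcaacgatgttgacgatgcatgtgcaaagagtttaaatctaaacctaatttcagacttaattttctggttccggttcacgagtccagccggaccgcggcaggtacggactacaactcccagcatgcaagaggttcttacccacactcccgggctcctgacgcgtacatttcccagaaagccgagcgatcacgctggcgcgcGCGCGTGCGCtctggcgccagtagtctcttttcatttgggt
ATP5H: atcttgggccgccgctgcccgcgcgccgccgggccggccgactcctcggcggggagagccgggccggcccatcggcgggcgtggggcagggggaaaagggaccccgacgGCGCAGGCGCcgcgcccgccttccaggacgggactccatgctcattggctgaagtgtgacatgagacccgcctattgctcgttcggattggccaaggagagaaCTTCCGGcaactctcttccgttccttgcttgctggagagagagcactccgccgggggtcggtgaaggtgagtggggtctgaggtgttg
ATP5K: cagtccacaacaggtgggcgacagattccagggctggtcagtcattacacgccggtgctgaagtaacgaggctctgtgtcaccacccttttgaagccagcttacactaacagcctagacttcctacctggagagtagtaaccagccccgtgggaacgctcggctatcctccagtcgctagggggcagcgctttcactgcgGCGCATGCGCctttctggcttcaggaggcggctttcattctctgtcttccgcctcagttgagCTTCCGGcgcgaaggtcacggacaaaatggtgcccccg
ATP5J: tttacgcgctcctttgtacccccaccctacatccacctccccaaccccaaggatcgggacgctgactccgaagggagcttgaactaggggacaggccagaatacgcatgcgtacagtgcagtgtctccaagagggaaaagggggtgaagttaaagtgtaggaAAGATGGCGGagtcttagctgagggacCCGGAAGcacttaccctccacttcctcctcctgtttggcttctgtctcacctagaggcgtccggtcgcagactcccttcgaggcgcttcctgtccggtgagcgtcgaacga
NDUFS6 held an NRF1 match and a YY1 match, ATP5O an NRF1 match, ATP5H and ATP5K an NRF1 and an ETS match each, and the second ATP5J window an ETS and a YY1 match. None of the letters searched was in the NDUFA4 window or in the first ATP5J window, which is not printed. Genotype log2 ratios of genes with and without a match were set side by side as a description. The median was 0.08 above and 0.11 below for the 37 genes with any match, and 0.06 and 0.07 for the 38 without. For the 19 genes with an NRF1 match it was 0.09 above and 0.10 below, and for the 56 without it was 0.07 and 0.08. The 19 genes with an ETS match had 0.08 and 0.06, and the 56 without had 0.07 and 0.09. The 6 genes with a YY1 match had 0.12 and 0.19, and the 69 without had 0.07 and 0.07. For the 2 with an ESRRA match it was 0.08 and 0.11, and for the 73 without it was 0.07 and 0.09.

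**Figure D3:**
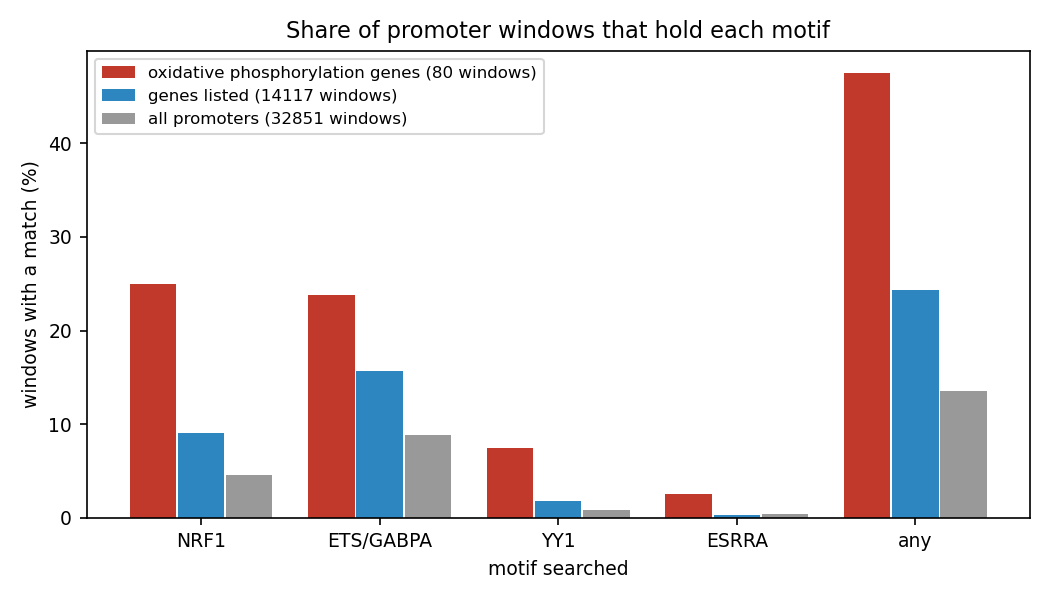
Share of promoter windows (y axis, percent) that hold each motif searched (x axis), for the oxidative phosphorylation genes, the genes listed in the table and all promoters. Bars start at 0; the NRF1 letters were in 25% of the member windows and 4.60% of all windows.

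Complex I takes electrons from NADH and is the largest of the complexes. Above the lesion 27 of its 37 subunits were over 0, with a median of 0.06, and below it 29 of the 34 listed were, with a median of 0.14. The 7 core subunits, which hold the flavin and iron-sulfur clusters, were all over 0 above (0.01 to 0.27), and the 4 of them listed below were too (0.11 to 0.21). NDUFS1, the large iron-sulfur subunit, had 148 and 149 FPKM above in synj1+/+ and synj1+/- and 150.2 and 174 below. NDUFS7, next to the quinone site, had 161 and 179 above and 164 and 186 below, so that it was higher in synj1+/- by a similar amount at both sites. NDUFS3 was at least 0.25 higher above (23.2 and 28.1 FPKM, log2 ratio 0.27) and was not listed below.

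Among the 30 accessory subunits of complex I, which surround the core and are needed for its assembly and stability, 20 were over 0 above (median 0.05) and 25 below (median 0.11). Besides NDUFS6, 3 were at least 0.25 higher above the lesion. NDUFB1-PS had 11.4 FPKM in synj1+/+ and 15.5 in synj1+/- above (log2 ratio 0.42), but 16.8 and 17.7 below (0.07). NDUFA13, also known as a cell death regulator, had 20.1 and 26.8 above (0.40) and 26.6 and 26.9 below (0.01). NDUFA7 had 189 and 240.2 above (0.34) and 251 and 237 below (-0.08). For each of these 3, the synj1+/+ group above the lesion was lower than the other 3 groups. These genes were picked for being higher in synj1+/- above, and 73 of 84 members were higher below than above in each genotype. Levels across the sites are only set side by side, so this order does not set these genes apart. NDUFB1-PS shares 147 exon bases with Cpsf2 and NDUFA13 375 with Tssk6, both on the opposite strand.

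At the other end of complex I, NDUFB5 had 66.1 FPKM in synj1+/+ and 58.6 in synj1+/- above (-0.17) and 68.0 and 75.1 below (0.14). NDUFA10 was lower in synj1+/- at both sites, with 109 and 101 FPKM above (-0.10) and 121 and 118 below (-0.05). NDUFA6 was highest of the well-expressed subunits below after NDUFS6, with 77.5 and 90.8 FPKM there (0.23) and 83.9 and 85.3 above (0.03). NDUFC2 was the lowest below, with 76.0 and 70.4 (-0.11), and went from 60.4 to 66.9 above (0.15). NDUFC1 had some of the lowest values of the members. It had 2.49 and 1.60 FPKM above (-0.42) and 0.687 and 2.16 below (0.91), so its log2 ratios rest on values near 1.

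Among the complex I assembly factors, NDUFAF6 differed most between the sites. NDUFAF6, a factor needed early in complex I assembly, had 109 FPKM in synj1+/+ and 77.7 in synj1+/- above (-0.49), and 66.1 and 119 below (0.84). Which labelled genotype had the higher level thus changed from site to site. With NDUFC1 it was 1 of 2 members past 0.25 in opposite directions at the 2 sites (1.99% of all genes listed at both), and the difference between sites was not tested. NDUFAF8 had 14.2 and 15.9 FPKM above (0.15) and 15.1 and 18.5 below (0.28), and NDUFAF7, a methyltransferase, had 79.9 and 96.7 above (0.27) and 88.8 and 102 below (0.20). NDUFAF1 and NDUFAF3 were lower above, with 40.5 and 36.6 FPKM (-0.14) and 14.3 and 13.3 (-0.09). All 7 of the assembly factors listed below were over 0 there.

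Complex II, succinate dehydrogenase, ties the respiratory chain to the citric acid cycle and is the one complex encoded wholly in the nucleus. SDHA, the flavoprotein that oxidises succinate, had 76.9 FPKM in synj1+/+ and 89.1 in synj1+/- above (0.21) and 82.5 and 88.6 below (0.10). SDHB, the iron-sulfur subunit, had 11.1 and 11.4 above (0.04) and 11.5 and 12.1 below (0.06). Of the membrane anchors, SDHC had 217 and 229.5 above (0.08) and 247 and 247 below (0.00), and SDHD had 47.9 and 47.6 above (-0.01) and 54.5 and 55.2 below (0.02). SDHA had the widest difference of the 4 at each site, and no subunit reached 0.25.

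Complex III, the cytochrome bc1 complex, had 5 of 8 subunits over 0 at each site, with medians of 0.05 above and 0.10 below. UQCRB, which binds ubiquinone, had 30.7 and 35.6 FPKM above (0.21) and 40.7 and 37.3 below (-0.12), so its direction differed between the sites. UQCRH, the hinge protein, had 48.9 and 53.9 above (0.14) and 62.0 and 72.1 below (0.21). UQCR10, the most abundant of the complex, had 740 and 749 above (0.02) and 859 and 857 below (0.00). None of the complex reached 0.25. Without UQCRB and UQCRC2, whose exons overlap another gene, the median of the other 6 was -0.01 above and 0.15 below, so the direction above rests on those genes.

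Complex IV, cytochrome c oxidase, had 11 of 14 nuclear genes over 0 above (median 0.09) and 9 of the 13 listed below (median 0.05). NDUFA4, first named as a complex I subunit and now placed in complex IV, had the highest log2 ratio of all members above the lesion. It measured 32.0 FPKM in synj1+/+ and 44.6 in synj1+/- there (0.47), and 43.0 and 46.2 below (0.10). The synj1+/+ group above was again the lowest of the 4, an order with the same limits as for the complex I genes. NDUFA4L2, its paralog known to be induced by low oxygen, showed the other pattern, with 13.6 and 13.9 FPKM above (0.03) and 12.9 and 21.0 below (0.67). Of the FPKM of the pair, NDUFA4L2 made up 29.9% in synj1+/+ and 23.8% in synj1+/- above, and 23.1% and 31.3% below. NDUFA4L2 shares 32 exon bases with Shmt2 on the opposite strand.

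Some complex IV subunits have isoforms of particular tissues, and for subunits 4 and 8 the common isoform held nearly all of the FPKM in all 4 groups. COX4I1, the common isoform of subunit 4, had 519.9 and 539 FPKM above (0.05) and 576 and 624 below (0.12), and made up 98.9% to 99.3% of the FPKM of the subunit 4 pair. COX4I2, the isoform of lung and of low oxygen, had 4.39 and 5.83 above (0.34) and 5.20 and 4.49 below (-0.18), at a level where 1 FPKM moves the ratio much. COX8A had 281 and 299.7 above (0.09) and 323 and 338 below (0.06), and COX8B, the isoform of heart and muscle, was between 1.34 and 2.28 in all 4 groups. Subunit 6B differed from these, since COX6B2, known as its testis isoform, made up 24.6% to 26.4% of the FPKM of its pair. COX6B2 has 9 annotated transcript models and COX6B1 has 4, and how the models entered the gene values is not given in the sources used here. COX6B1 had 56.8 and 53.8 above (-0.08) and 71.1 and 66.4 below (-0.10), and COX6B2 19.6 and 19.3 above (-0.02) and 23.2 and 22.1 below (-0.07), so both were slightly lower in synj1+/- at both sites. COX6A1 had 57.9 and 61.8 above (0.09) and 67.7 and 72.5 below (0.10), and COX7A2 24.9 and 28.2 above (0.18) and 28.4 and 30.8 below (0.11). The muscle isoforms COX6A2 and COX7A1 were not listed.

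Complex V, the ATP synthase, differed in its parts. The 5 genes of the catalytic F1 head were all over 0 above (median 0.12), and 4 of 5 were below (median 0.16), the exception being ATP5E at 2.53 and 2.32 FPKM. ATP5B, the beta subunit that carries the catalytic sites, had 843 and 875 FPKM above (0.05) and 884 and 986 below (0.16). ATP5A1, the alpha subunit, had 209 and 227 above (0.12) and 222 and 252 below (0.18). ATP5D, the delta subunit, was the most abundant of all members in all 4 groups, with 1207 and 1267 above (0.07) and 1279 and 1404 below (0.13).

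The stalk and membrane genes of complex V were over 0 in 9 of 11 cases above (median 0.08) and in 3 of 12 below (median -0.06). Over the 8 without overlapping exons the medians were 0.17 and -0.03, and with a pseudocount of 10 added they were 0.05 and -0.04. ATP5H, subunit d of the peripheral stalk, had 36.2 FPKM in synj1+/+ and 42.7 in synj1+/- above (0.23), and 44.1 and 36.3 below (-0.27). ATP5K, subunit e of the membrane part, had 12.5 and 15.4 above (0.28) and 14.3 and 12.8 below (-0.14). Both genes were thus higher in synj1+/- above the lesion and lower below it. ATP5O, the stalk protein that confers oligomycin sensitivity, was listed only below, at 8.17 and 5.64 FPKM (-0.47). Its gene lies 0.911 Mb from SYNJ1 on chromosome 16 and shares 287 exon bases with Donson on the same strand. ATP5J, also on chromosome 16 at 6.10 Mb from SYNJ1, had 867 and 919.7 above (0.08) and 971 and 958 below (-0.02).

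Subunit c, which forms the rotating ring, is encoded by 3 genes with the same mature protein. ATP5G3 had 679 and 758 FPKM above (0.16) and 737 and 849 below (0.20), and was the exception among the membrane genes with ATP5PB and ATP5MPL in being higher below. ATP5G1 had 71.2 and 73.1 above (0.04) and 90.6 and 85.9 below (-0.08), and ATP5G2 had 57.1 and 55.0 above (-0.05) and 61.7 and 56.9 below (-0.11). ATP5G3 made up 84.1% and 85.5% of the subunit c FPKM above in synj1+/+ and synj1+/-, and 82.9% and 85.6% below.

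**Figure D4:**
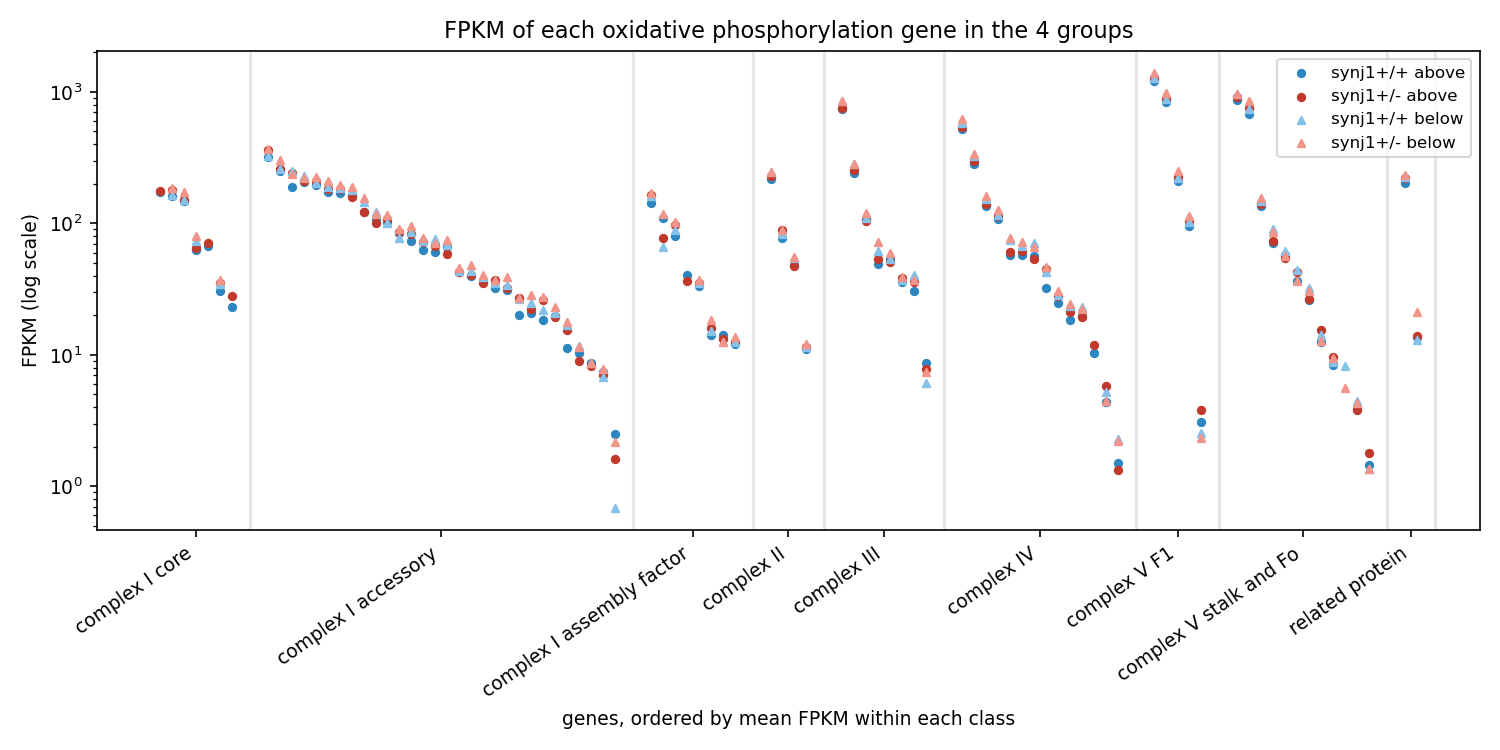
FPKM (y axis, log scale) of each gene in the 4 groups, with genes ordered by mean level within each class (x axis). Circles are groups above and triangles groups below the lesion, blue for synj1+/+ and red for synj1+/-; levels run from ATP5D at 1207 to ATP5MD at 1.46 FPKM in synj1+/+ above the lesion, a spread far wider than that between groups of any one gene.

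Levels within a complex were far from equal. In synj1+/+ above the lesion the median member had 57.0 FPKM, and the members ran from 1.46 (ATP5MD) to 1207 (ATP5D), although most subunits are present in equal number in the assembled complex. The members are short, with a median transcript length of 683 bases over 87 genes against 2184.5 over all genes. Across the 87, FPKM had a Spearman correlation of 0.34 with the number of annotated transcript models (0.50 over 13451 genes), a description across genes of 1 group. The FPKM of all genes in synj1+/+ above summed to 1.69e+06, and how transcript models entered a gene's value is not given in the sources used here. Differences in level between genes, isoform shares included, may come in part from the quantification, which was not tested. Most members were also higher below the lesion than above it. The level below over that above, on the log2 scale of FPKM plus 1, had a median of 0.12 in synj1+/+ and 0.14 in synj1+/-, with 73 of 84 over 0 in each genotype, against medians of 0.00 and 0.02 over all genes. As the normalization was done within each site, these are levels set side by side and not a comparison of the sites.

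Other genes of energy metabolism gave a frame for these values. Assembly factors of complexes I to V outside the members (such as SURF1 and the SCO and ATPAF genes) were over 0 in 25 of 36 cases above (median 0.12) and 21 of 32 below (0.06). Of these, ATPAF2, which helps to build the F1 head, had 148 and 181 FPKM above (0.29), and ACAD9, a complex I assembly factor, had 28.2 and 37.8 below (0.41). Citric acid cycle and pyruvate dehydrogenase genes were over 0 in 11 of 16 cases above (0.05) and 13 of 15 below (0.11), though SUCLG2, a subunit of succinyl-CoA ligase, had 56.2 and 45.0 below (-0.31). DLD had 18.5 and 20.5 FPKM above (0.14). Glycolytic genes were over 0 in 7 of 14 above (0.00) and 6 of 11 below (0.08), with HK1, the main hexokinase of brain, at 411 and 507 below (0.30). PFKP had 344 and 296 FPKM above (-0.22).

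Of the carriers and coupling proteins, 9 of 13 were over 0 above and 9 of 12 below. This list includes COX7A2L, which is also a member and was over 0 at both sites (0.13 above and 0.06 below). UCP2, an uncoupling protein that is abundant in macrophages and microglia, had 136 and 108 FPKM above (-0.33) and 156 and 111 below (-0.50). ATPIF1, the natural inhibitor of complex V, was chosen after its values were seen, and had 173 and 213 above (0.29) and 208 and 259.7 below (0.32). Regulators of mitochondrial gene expression were over 0 in 5 of 12 cases above (-0.03) and 10 of 11 below (0.11). PPARGC1A, the coactivator of mitochondrial biogenesis, had 90.5 and 88.5 FPKM above (-0.03) and 82.1 and 122 below (0.57), and GABPA had 64.4 and 55.9 above (-0.20) and 61.7 and 47.1 below (-0.38). GABPA shares 397 exon bases on the opposite strand with ATP5J, which was at 867 FPKM or more in every group. Reads there cannot be told apart, so the GABPA values carry that limit. Mitochondrial ribosomal protein genes had a median of 0.03 at each site. Cytosolic ribosomal protein genes, which are also short, were over 0 in 47 of 78 cases above (0.02) and 11 of 71 below (-0.12).

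**Figure D5:**
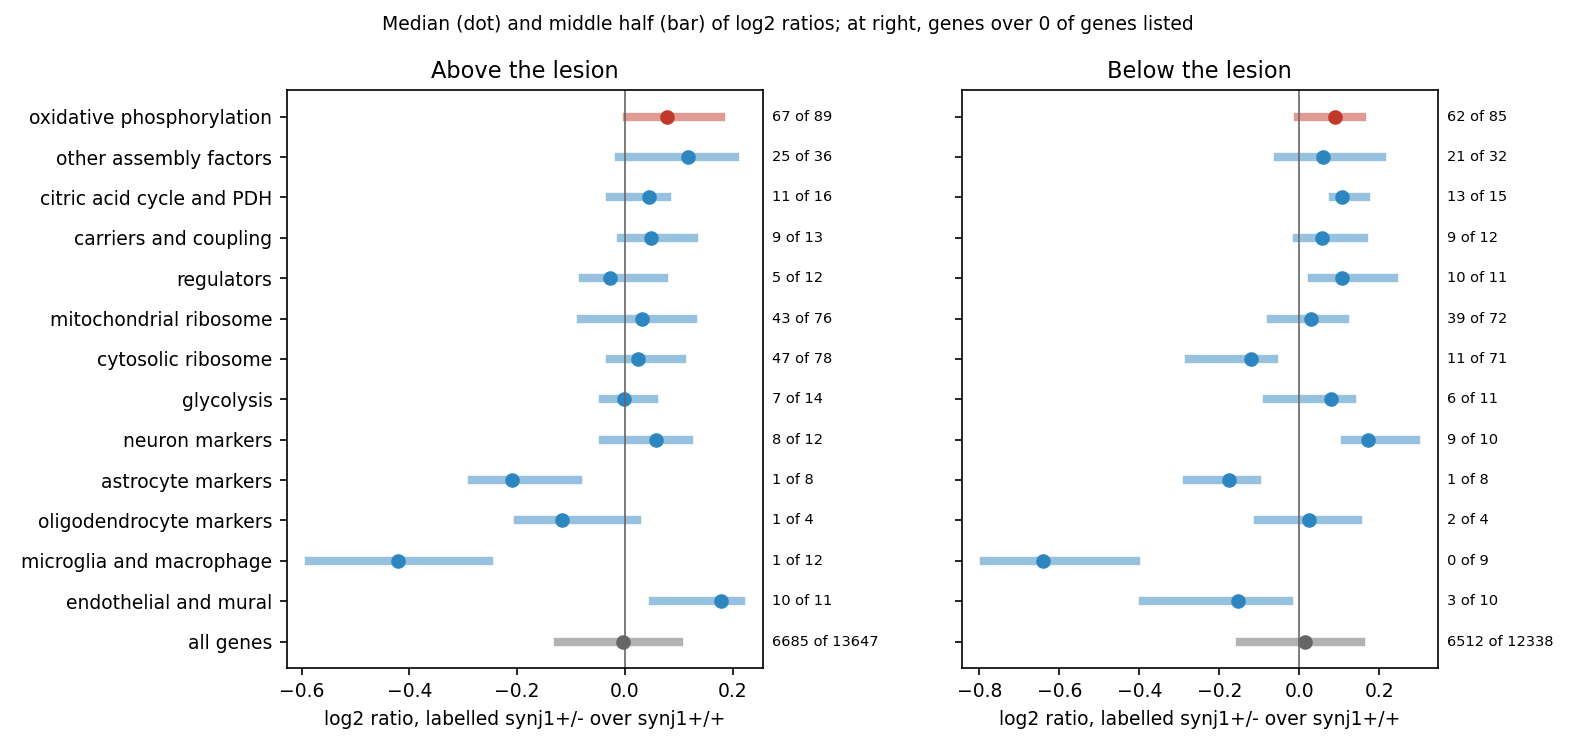
Genotype log2 ratio (x axis) of oxidative phosphorylation genes (red), other gene lists (blue) and all genes (grey), above and below the lesion. Dots are medians, bars the middle 50% of genes, and the counts at the right give genes over 0 of genes listed; the oxidative phosphorylation median was 0.08 above and 0.09 below, and that of microglia and macrophage markers was -0.42 and -0.64.

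Markers of cell types moved with genotype too. Neuron markers were over 0 in 8 of 12 cases above (median 0.06) and 9 of 10 below (0.17). Their summed FPKM over the genes listed, 12 above and 10 below, went from 11408 to 12753 above and from 9461 to 11749 below. SNAP25 alone went from 5238 to 6247 above and from 5271 to 6928 below. The neuron markers under 0 above were TUBB3, NEFL, NEFM and NEFH. Over the 10 listed at both sites the median above was 0.02. Microglia and macrophage markers were over 0 in 1 of 12 above (-0.42, sum 2492 to 1858) and 0 of 9 below (-0.64, sum 2870 to 1866). Astrocyte markers were over 0 in 1 of 8 at each site (-0.21 above and -0.18 below). Fibroblast markers were over 0 in 0 of 8 above (-0.52) and 0 of 7 below (-2.81), with -0.20 and -1.94 after a pseudocount of 10 was added, and red cell genes were over 0 in 5 of 5 at each site (2.17 above and 0.37 below). Endothelial and mural markers were over 0 in 10 of 11 above (0.18) and 3 of 10 below (-0.15). Only 4 of 8 oligodendrocyte markers were listed (-0.12 above and 0.02 below), and 2 of 12 skeletal muscle genes above and 3 below, with summed levels of at most 14.0 FPKM. The part of these cell types in the oxidative phosphorylation values was not tested. In bulk tissue, a change in the number of cells of a type and a change in RNA per cell cannot be told apart.

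The members were also set beside all genes of like length and level. Of the 52 members of 500 to 1000 bases, 42 were over 0 above (median 0.08) and 38 below (0.10). The 2241 and 2112 genes of that length had medians of 0.01 and -0.01, with 52.8% and 49.1% over 0. Of the 13 members of up to 500 bases, 8 were over 0 above (0.02) and 7 below (0.05). Among all genes of that length, 48.4% and 46.9% were over 0. Among the 7 members over 300 FPKM above, all 7 were over 0 (median 0.07). The 1165 genes at that level had a median of 0.00, with 52.4% over 0. Of the 8 such members below, 6 were over 0 (0.12), and the 882 genes had a median of 0.06, with 62.6% over 0. At each site 10 members had a mean FPKM plus 1 of up to 10, and 4 of them were over 0. Their medians were -0.05 above and -0.02 below, and 44.1% and 47.6% of all genes at that level were over 0. Exons of 31 of the 90 members overlap another annotated gene, and the library kit does not mark strand, so reads there cannot be told apart. Without them 43 of 59 were over 0 above (median 0.07) and 41 of 57 below (0.09).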

How the data were processed

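RNA from spinal cord segments was sequenced in 12 libraries, put into 4 groups by labelled genotype and site. Per the labels' processing notes the authors used STAR 2.5.4b, Cuffdiff 1.3.0 and build GRCm38.p6. The study's methods state that libraries of a site were downsampled to equal reads, then scaled by the upper quartile, and the gene annotation is not given in the sources used here. The authors deposited 1 FPKM value per gene and group, read as FPKM plus 1 since no value lies under 1, so depth and spread per library cannot be read from it. The deposited table also holds the authors' fold changes, p-values and q-values, which were not used, nor was their shorter list of genes chosen by p-value.

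Log2 ratios, counts past 0.25 and medians were computed with Python 3.11.15, numpy 2.4.6 and pandas 2.3.3, tested on simulated data. No test was computed, as the values used are 1 per group. Alternatives were other pseudocounts, a minimum level, centring on all genes, a threshold of 0.5 and smaller member sets. Genes named were SYNJ1, complex II, isoform pairs, members past 0.25 at both sites and the extremes by level. The 5 highest and 5 lowest members per site with FPKM plus 1 of at least 10 in both groups were named too. So was the gene of largest change per site at that level in the other lists of energy metabolism. In the ribosome and cell type lists no gene was named by this rule. Others illustrate a complex. Members and lists were chosen with earlier results of these data known. All 90 symbols matched RefSeq; exon overlap and lengths are from GENCODE M21. ApoE3 libraries were not analysed here. Some items are not reported here.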

Additional observations from a re-analysis of the deposited data

Results flagged for a closer look

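NDUFAF6 and NDUFC1 were past 0.25 in opposite directions at the 2 sites. They were 2.38% of the 84 members listed at both sites, close to the 1.99% of all 12025 genes listed at both. For NDUFAF6 the log2 ratio was -0.49 above and 0.84 below the lesion, a difference (below minus above) of 1.32. For NDUFC1 it was -0.42 above and 0.91 below, a difference of 1.33, at levels of at most 2.49 FPKM. With 1 combined value per group the difference between sites was not tested.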

How the results depend on the processing

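No error, leave-one-out value or other split of the samples could be computed, because the table holds 1 combined value per group. No paired analysis was possible because the result comes from no test and no column carries a single library. The added 1, a further pseudocount of 10, a minimum of FPKM plus 1 of 10, centring on all genes, subunits alone, genes listed at both sites and members without overlapping exons were tried, the last 2 chosen after seeing the data (for the members). The member medians stayed between 0.06 and 0.08 above and between 0.07 and 0.09 below. Among all genes with a mean value in the range of the members, 7.37% passed upward and 11.3% downward above, and 13.5% and 15.6% below, close to the shares over all genes. Medians of small classes and lists moved more. Above the lesion, with the minimum, that of complex III was 0.08 and that of the fibroblast list -0.33 over 2 genes, and with the pseudocount that of the F1 head was 0.07. Without overlapping exons, complex III above turned to -0.01, complex V stalk and membrane genes had 0.17 above, and the assembly factors 0.20 below. The regulators had 0.04 below with the minimum. Counts past the threshold were small and moved. Above, the 9 higher members became 4 with the pseudocount, 0 at a threshold of 0.5 and 5 without overlapping exons, and the 2 lower became 1 with the pseudocount, the minimum or subunits alone, and 0 at 0.5. Below, the 5 higher became 2 with the pseudocount, 3 at 0.5, 2 with subunits alone and 3 without overlapping exons, and the 2 lower became 0 with the pseudocount or at 0.5, and 1 with the minimum, at both sites or without overlapping exons. Without overlapping exons, 43 members above and 41 below were over 0, since 59 and 57 genes were left. The red cell median above was 1.95 with the pseudocount, and that of skeletal muscle, -0.32 over 2 genes, was 0.15 for the 1 gene listed at both sites. Libraries of a site were downsampled to equal reads per the study's methods, and the deposited values do not show depth per library. Of the genes named, NDUFB1-PS, NDUFC1, COX4I2, ATP5E, NDUFA4L2 and ATP5O moved with the pseudocount by more than the SD of the members' log2 ratios. All of these were at 21.0 FPKM or less in every group.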
